A study of Mus musculus with 19 samples.

Results

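Neutrophil granule genes are described here in the spleens of mice that differ in sex chromosomes and gonads. The 10 genes were chosen by name from the 27179 genes listed, with earlier results of these data known. The primary granule genes are Mpo, Elane, Prtn3 and Ctsg. Ngp, Camp, Ltf and Lcn2 stand for granules that form later, and S100a8 and S100a9 for the cytosol of the mature cell. All 10 were tested.

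RNA-seq was done on splenocytes from 19 mice of the FCG model on a C57BL/6 background, with 1 library per mouse. In the FCG model the Y chromosome lacks the testis-determining gene Sry, and a transgene on autosome 3 supplies it, so that gonad and sex chromosomes vary apart. The groups were 5 XX mice with ovaries (XXF), 4 XY mice with ovaries that lack Sry (XYF), 5 XX mice with testes that carry the Sry transgene (XXM) and 5 XY mice with testes that carry it (XYM). Every animal had received HKSP (heat-killed S. pneumoniae) as immunization, spleens were taken a week after it, and no unimmunized mice were analysed here. Red cells were lysed before RNA extraction, the cells were not sorted by type, and the sources used here do not give the ages of the mice. Xist had at most 17 reads in XY mice and at least 5823 in XX mice, and 0 of 19 mice went against their label. No batch is given, the running numbers of the libraries go along the groups, and only XXM titles have an added tag, so that group and processing order cannot be told apart.

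Neutrophils make their granules in order as they mature in the bone marrow and, to a smaller extent in mice, in the red pulp of the spleen. Promyelocytes transcribe the genes of primary granules, myelocytes and metamyelocytes those of the later granules, and transcription of these genes is largely switched off before the cell is mature, whereas S100a8 and S100a9 remain expressed in mature neutrophils. RNA of primary granule genes therefore marks immature cells of the lineage, while the proteins persist in circulating neutrophils.

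The libraries held between 11263753 reads (XYF F6) and 19962022 reads (XYM 13). Reads behind a value ranged from 55 for Ctsg in XXF F3 to 230019 for S100a9 in XYM 9, so that counting error was largest for the primary granule genes. Levels are given as RPKM, reads scaled by gene length and library size, and differences on the scale of log2(RPKM + 1) that the authors deposited.

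The mice XYF F9 and XYM 9 stood apart from all others. The 10 genes took 3.93% of all reads in XYF F9 (95% Wilson interval 3.92 to 3.94, counting error only) and 4.18% in XYM 9 (4.17 to 4.18). In the other 17 mice they took between 0.215% (XXF F2) and 0.918% (XYF F7), with a median of 0.324%. Each of the 10 genes had its highest levels of all mice in these 2 animals. In XYF F9 the RPKM was between 3.02-fold (Camp) and 8.74-fold (Mpo) that of the median of the other 3 XYF mice. In XYM 9 it was between 10.8-fold (Elane) and 16-fold (Lcn2) that of the median of the other 4 XYM mice. On the log2 scale the gap of either mouse to the next of its group was less than Dixon's 95% critical value for each of the 10 genes (0.539 to 0.826 of the group's range for XYF F9 and 0.547 to 0.635 for XYM 9). The comparisons of the 10 genes are given with both mice and, as a choice made after seeing the data, without them. In bulk RNA, fewer cells of a type and less RNA per cell cannot be told apart. All differences are in RNA relative to the rest of the same library, not in amounts per spleen.

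**Figure D1:**
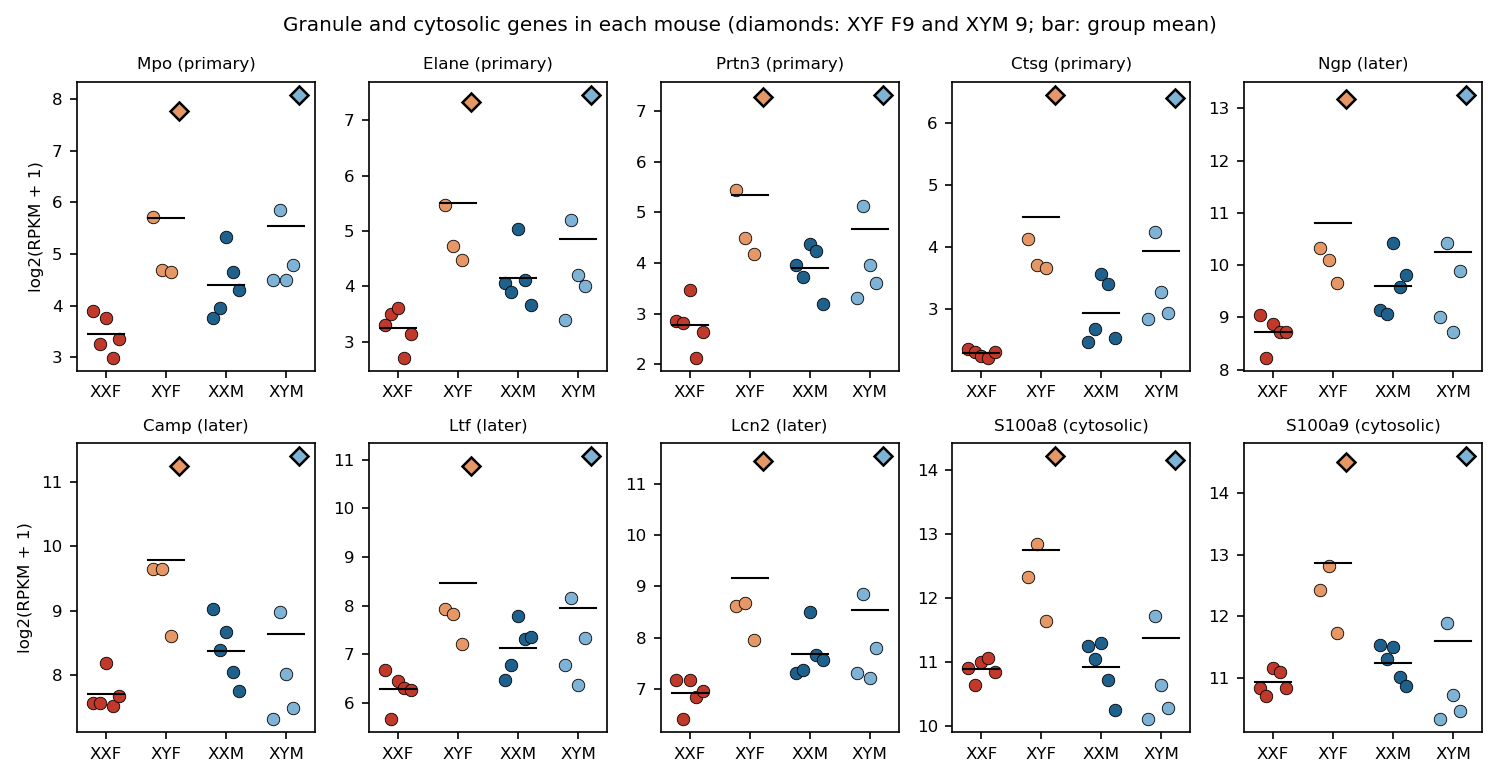
Log2(RPKM + 1) of the 10 genes in each of the 19 mice, by group; bars are group means and diamonds mark XYF F9 and XYM 9. The diamonds lie above all other mice in every panel, and the XXF mice lie below all XYF mice in every panel.

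The primary granule genes encode the enzymes that are packed first. Mpo (Entrez Gene 17523) encodes myeloperoxidase, which makes hypochlorous acid, and lies on chromosome 11 of GRCm38 from 87793784 to 87804412. Elane (50701) encodes neutrophil elastase and Prtn3 (19152) proteinase 3, serine proteases whose genes are neighbours on chromosome 10, 3137 bases apart with 0 protein-coding genes between them. Ctsg (13035) encodes cathepsin G, a further serine protease, on chromosome 14 from 56099885 to 56102574. Their promoters are shown (RefSeq, GRCm38.p6, 250 bases before to 50 after the start of the gene, 5′ to 3′ on the gene's strand). They lie at chr11:87793534-87793833 (+, Mpo), chr10:79886062-79886361 (+, Elane), chr10:79879417-79879716 (+, Prtn3) and chr14:56102525-56102824 (-, Ctsg). Capitals mark AGGAAGT, letters that the transcription factor PU.1 is known to bind.
Mpo: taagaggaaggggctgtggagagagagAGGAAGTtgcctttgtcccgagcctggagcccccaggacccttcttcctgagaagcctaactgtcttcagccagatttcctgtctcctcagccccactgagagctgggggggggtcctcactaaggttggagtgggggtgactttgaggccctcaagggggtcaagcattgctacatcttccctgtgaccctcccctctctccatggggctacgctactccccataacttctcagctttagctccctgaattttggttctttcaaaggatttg
Elane: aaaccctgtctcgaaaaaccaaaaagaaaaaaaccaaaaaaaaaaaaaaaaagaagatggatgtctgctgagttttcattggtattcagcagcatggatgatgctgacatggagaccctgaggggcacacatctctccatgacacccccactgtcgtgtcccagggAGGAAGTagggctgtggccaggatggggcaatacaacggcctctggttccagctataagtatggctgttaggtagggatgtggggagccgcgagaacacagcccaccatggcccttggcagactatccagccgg
Prtn3: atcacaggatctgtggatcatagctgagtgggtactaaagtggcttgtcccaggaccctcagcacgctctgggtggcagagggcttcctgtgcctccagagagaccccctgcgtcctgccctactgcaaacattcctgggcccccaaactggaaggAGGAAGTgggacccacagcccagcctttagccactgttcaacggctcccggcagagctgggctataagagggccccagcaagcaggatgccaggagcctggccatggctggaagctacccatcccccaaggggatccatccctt
Ctsg: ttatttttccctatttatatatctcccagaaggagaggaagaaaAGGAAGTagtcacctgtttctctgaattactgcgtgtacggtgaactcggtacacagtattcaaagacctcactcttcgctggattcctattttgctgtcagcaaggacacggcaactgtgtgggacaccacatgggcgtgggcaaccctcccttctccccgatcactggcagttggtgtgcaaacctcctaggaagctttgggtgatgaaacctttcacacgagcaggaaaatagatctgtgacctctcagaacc
AGGAAGT on either strand occurred in 3072 of 32851 promoters of this length (9.35%) and in 5 of the 10 genes, the 4 primary granule genes and S100a8. It starts 223 bases before the gene start in Mpo, 84 in Elane, 94 in Prtn3 and 206 in Ctsg, in each on the gene's own strand and without overlap with the other letters searched. TTGCNNAA, a form of the C/EBP motif, occurred in 10.8% of all promoters and in Ngp, Ltf, Lcn2 and S100a9, but in 0 of the 4 primary granule genes. TATAAA (13.6% of promoters) occurred in Ctsg, S100a8 and S100a9, and TGTGGT, a RUNX motif (16.8%), in Ctsg, Ltf and S100a9. Camp held none of the 4 motifs. A match is a description of letters in this window and not a binding site or a cause.

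Mpo had an RPKM of 14, 8.57, 12.5, 6.93 and 9.26 in XXF F1 to F5, and of 51.8, 24.8, 24.1 and 217 in XYF F6 to F9. In males it was 12.5, 14.5, 39.1, 24.3 and 18.7 in XXM 2, 5, 6, 7 and 8, and 271, 21.4, 57.2, 21.5 and 26.5 in XYM 9, 12, 13, 15 and 16. The XXF mice were thus lowest as a group, all of them below all XYF and all XYM mice, whereas the XXM mice overlapped with both XXF and XYM mice. As log2(RPKM + 1) the means were 3.45 ± 0.37 (SD, n = 5) in XXF, 5.71 ± 1.46 (n = 4) in XYF, 4.40 ± 0.62 (n = 5) in XXM and 5.54 ± 1.53 (n = 5) in XYM mice. Without XYF F9 and XYM 9 they were 5.02 ± 0.61 (n = 3) in XYF and 4.91 ± 0.65 (n = 4) in XYM mice.

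Prtn3 had an RPKM of 6.22, 6, 10, 3.37 and 5.25 in XXF F1 to F5, and of 42.3, 21.7, 17.1 and 155 in XYF F6 to F9. The males had 14.6, 12.3, 19.6, 17.9 and 8.13 in XXM 2, 5, 6, 7 and 8, and 159, 8.94, 34.0, 14.4 and 11.2 in XYM 9, 12, 13, 15 and 16. Outside XYM 9, the XYM mice lay among the XXM mice except XYM 13. Ctsg had an RPKM of 4.12, 4.01, 3.76, 3.67 and 3.96 in XXF F1 to F5, the narrowest group of all for this gene (log2 mean 2.29 ± 0.05 SD, n = 5), and of 16.7, 12.1, 11.6 and 86.8 in XYF F6 to F9. In males it was 4.53, 5.45, 10.9, 9.64 and 4.80 in XXM 2, 5, 6, 7 and 8, and 84.1, 6.22, 17.8, 8.68 and 6.67 in XYM 9, 12, 13, 15 and 16. Every male had more Ctsg RNA than every XXF mouse. Elane ranged from 5.56 to 11.2 RPKM in XXF, from 21.2 to 160 in XYF, from 11.7 to 32.0 in XXM and from 9.51 to 175 in XYM mice, the last falling to 9.51 to 35.7 without XYM 9.

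The later granule genes lie on chromosomes 9 and 2. Ngp (Entrez Gene 18054) encodes neutrophilic granule protein, Camp (12796) the antimicrobial peptide precursor cathelicidin and Ltf (17002) the iron-binding lactoferrin. These 3 share a stretch of chromosome 9, with 570351 bases and 8 protein-coding genes between Camp and Ngp and 596279 bases and 20 genes between Ngp and Ltf. Lcn2 (16819), on chromosome 2 from 32384637 to 32387739, encodes lipocalin 2, which binds bacterial siderophores and is also made by other cells during inflammation.

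Ngp had an RPKM of 530, 299, 469, 424 and 422 in XXF F1 to F5, and of 1278, 1095, 802 and 9225 in XYF F6 to F9. Among males it was 566, 534, 1371, 763 and 900 in XXM 2, 5, 6, 7 and 8, and 9813, 512, 1369, 424 and 946 in XYM 9, 12, 13, 15 and 16. All XXM mice lay above all XXF mice, if by little in XXM 5, and the XYM mice other than XYM 9 spanned both. Camp had an RPKM of 187, 188, 289, 183 and 203 in XXF F1 to F5, and of 798, 801, 389 and 2411 in XYF F6 to F9. In males it was 523, 333, 407, 264 and 215 in XXM 2, 5, 6, 7 and 8, and 2697, 158, 503, 258 and 178 in XYM 9, 12, 13, 15 and 16. Camp thus differed from Ngp in that XYM 12 and XYM 16 lay below every XXF mouse. Ltf ranged from 49.8 to 103 RPKM in XXF, from 148 to 1852 in XYF, from 88.1 to 218 in XXM and from 82.3 to 2144 in XYM mice. Lcn2 ranged from 83.3 to 143 RPKM in XXF, from 248 to 2792 in XYF, from 158 to 358 in XXM and from 147 to 3006 in XYM mice. Without XYF F9 and XYM 9 the highest Lcn2 levels were 406 in XYF and 459 in XYM mice.

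S100a8 (Entrez Gene 20201) and S100a9 (20202) encode the calcium-binding proteins that together form calprotectin. They are neighbours on chromosome 3, 22595 bases apart with 0 protein-coding genes between them, and they are also expressed in monocytes. The promoter of S100a8 (chr3:90668821-90669120, +) is the only 1 outside the primary granule genes that held AGGAAGT, here on the opposite strand, so that the capitals read ACTTCCT. The match starts 172 bases before the gene start.
S100a8: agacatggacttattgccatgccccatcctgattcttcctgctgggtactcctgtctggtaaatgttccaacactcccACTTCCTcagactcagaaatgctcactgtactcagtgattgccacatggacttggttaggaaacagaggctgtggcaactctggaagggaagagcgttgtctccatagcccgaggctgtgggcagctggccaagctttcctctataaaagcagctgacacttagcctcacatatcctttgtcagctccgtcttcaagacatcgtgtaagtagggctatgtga
S100a8 had an RPKM of 1908, 1588, 2027, 2117 and 1829 in XXF F1 to F5, and of 5116, 7259, 3196 and 18939 in XYF F6 to F9. Among males the values were 2441, 2109, 2499, 1690 and 1213 in XXM 2, 5, 6, 7 and 8, and 18233, 1097, 3342, 1591 and 1236 in XYM 9, 12, 13, 15 and 16. The XYF mice were high as a group, the XXM mice overlapped with the XXF mice, and XYM 12 and XYM 16 were among the lowest of all. S100a9 ranged from 1679 to 2311 RPKM in XXF, from 3428 to 23224 in XYF, from 1870 to 2982 in XXM and from 1296 to 24728 in XYM mice. Without XYF F9 and XYM 9 the highest S100a9 levels were 7161 in XYF and 3803 in XYM mice.

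Per length, the cytosolic genes were the most abundant. The median RPKM over the 19 mice was 2311 for S100a9 and 2109 for S100a8, and the ranges of these 2 genes overlapped throughout. Then came Ngp (763), Camp (289), Lcn2 (188) and Ltf (148), and last the primary granule genes Mpo (21.5), Elane (15.7), Prtn3 (14.4) and Ctsg (6.67). The spread over mice was wide in every gene. The highest mouse had 17.1-fold (Camp) to 47.2-fold (Prtn3) the RPKM of the lowest over all 19 mice, and 4.59-fold (Ngp) to 12.5-fold (Prtn3) over the 17 mice without XYF F9 and XYM 9.

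The comparison of XXF with XYF mice asks what differs with the sex chromosomes in animals with ovaries. All 10 genes were lower in XXF mice, in every case with the 5 XXF mice wholly below the 4 XYF mice. Of all genes tested, 5.65% had groups without overlap, 2.09% with XXF wholly below and 3.56% with XXF wholly above XYF mice. Prtn3 fell by 2.57 on the log2 scale (SE 0.68, 95% interval -3.99 to -1.15) and passed the test (limma, adjusted p = 0.0766). Ctsg fell by 2.20 (SE 0.62, interval -3.49 to -0.90, limma adjusted p = 0.096). These were the only members called in this comparison (2 of 10, beside 1.38% of all genes called, 0.712% lower and 0.670% higher), where called means an adjusted p under 0.1 over 14186 genes and a change of at least 1.5-fold. The other 8 genes had estimates between -2.27 (Lcn2) and -1.87 (S100a8) with limma adjusted p between 0.105 (Elane) and 0.171 (Ngp). The median over the 10 genes was -2.18, beside 0.06 over all genes tested. The direction held for all 10 genes in every alternative run, but the number called did not. It was 0 by limma-voom and 0 without XXF F1, F2, F4 or F5, XYF F6, XYF F9 or XXM 5, although all 10 genes had an unadjusted p under 0.05 in the limma test. It was 1 without XXF F3, XXM 2, 6, 7 or 8, or XYM 13, 15 or 16, 3 without XYM 12, 6 without XYF F7 (6.01% of all genes called, 3.99% lower), 9 without XYF F8 (2.66%, 1.17% lower) and 10 without XYM 9 (2.95%, 1.97% lower). Where leaving out 1 mouse gave 0 members, 0.404% (XYF F9) to 1.12% (XXM 5) of all genes were called. Where it gave 1, the share was 1.17% (XXM 6) to 1.43% (XXF F3), and without XYM 12 it was 1.39%. With both XYF F9 and XYM 9 left out the spread was smaller and 8 of the 10 genes were called lower, beside 0.901% of 14097 genes called, 0.553% lower and 0.348% higher. Prtn3 then fell by 1.93 (SE 0.39, limma adjusted p = 0.0296), Ctsg by 1.54 (SE 0.29, adjusted p = 0.0199), Camp by 1.60 (adjusted p = 0.0514) and S100a8 by 1.38 (adjusted p = 0.0945). Ngp (-1.30, adjusted p = 0.125) and Ltf (-1.37, adjusted p = 0.105) were not called.

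The same question in animals with testes gave smaller estimates. Between XXM and XYM mice limma called 0 of the 10 genes (2.96% of all genes called, 1.83% lower and 1.13% higher), 0 had an unadjusted p under 0.05, and limma-voom called 0. For each gene the groups overlapped, whereas 4.07% of all genes had groups without overlap, 1.80% with XXM wholly below and 2.27% wholly above. The estimates ran from -1.14 for Mpo (SE 0.63, 95% interval -2.46 to 0.18) to -0.26 for Camp (SE 0.60, interval -1.52 to 1). They rested on XYM 9. Without it, Ngp was at 0.09, Camp at 0.43, S100a8 at 0.23 and S100a9 at 0.40, so that their signs turned, while Mpo was at -0.51, Ctsg at -0.39, Lcn2 at -0.11, Prtn3 at -0.10, Elane at -0.05 and Ltf at -0.02. The count was again 0 with both XYF F9 and XYM 9 left out (6.23% of 14097 genes called, 4.16% lower and 2.07% higher), with 0 at an unadjusted p under 0.05 in the limma test.

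Averaged over both gonadal sexes, the 4 primary granule genes and Lcn2 were lower in XX than in XY mice, 5 of the 10 genes beside 1.72% of all genes called, 1.21% lower and 0.515% higher. Mpo fell by 1.70 on the log2 scale (SE 0.46, limma adjusted p = 0.0539), Prtn3 by 1.67 (SE 0.47, 0.0611), Ctsg by 1.60 (SE 0.42, 0.0502), Elane by 1.47 (SE 0.44, 0.0784) and Lcn2 by 1.57 (SE 0.51, 0.0946). The 5 genes not called had estimates from -1.49 (Ltf) to -1.14 (S100a9). The count was 4 by limma-voom, 0 without XYF F9, 2 without XXF F5, XXM 5 or XYM 13, 3 without XXF F2, F3 or F4, XYF F6 or XXM 2, 7 or 8, and 4 without XXM 6 or XYM 16. It was 5 without XXF F1, XYM 9 or XYM 12, 6 without XYF F8 (1.60% of all genes called, 1.08% lower), 7 without XYF F7 (3.66%, 2.71% lower) and 9 without XYM 15 (2.87%, 2.05% lower). Where leaving out 1 mouse gave 0 to 5 members, 1.05% (XYF F9) to 2.09% (XXF F1) of all genes were called. The same 5 genes were called with both XYF F9 and XYM 9 left out (1.31% of 14097 genes called, 0.993% lower and 0.312% higher), with estimates from -1.04 (Mpo) to -0.81 (Lcn2). For 3 of them this average then came almost wholly from the females, since Elane, Prtn3 and Lcn2 had estimates of -1.64, -1.93 and -1.51 in XXF minus XYF and of -0.05, -0.10 and -0.11 in XXM minus XYM.

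**Figure D2:**
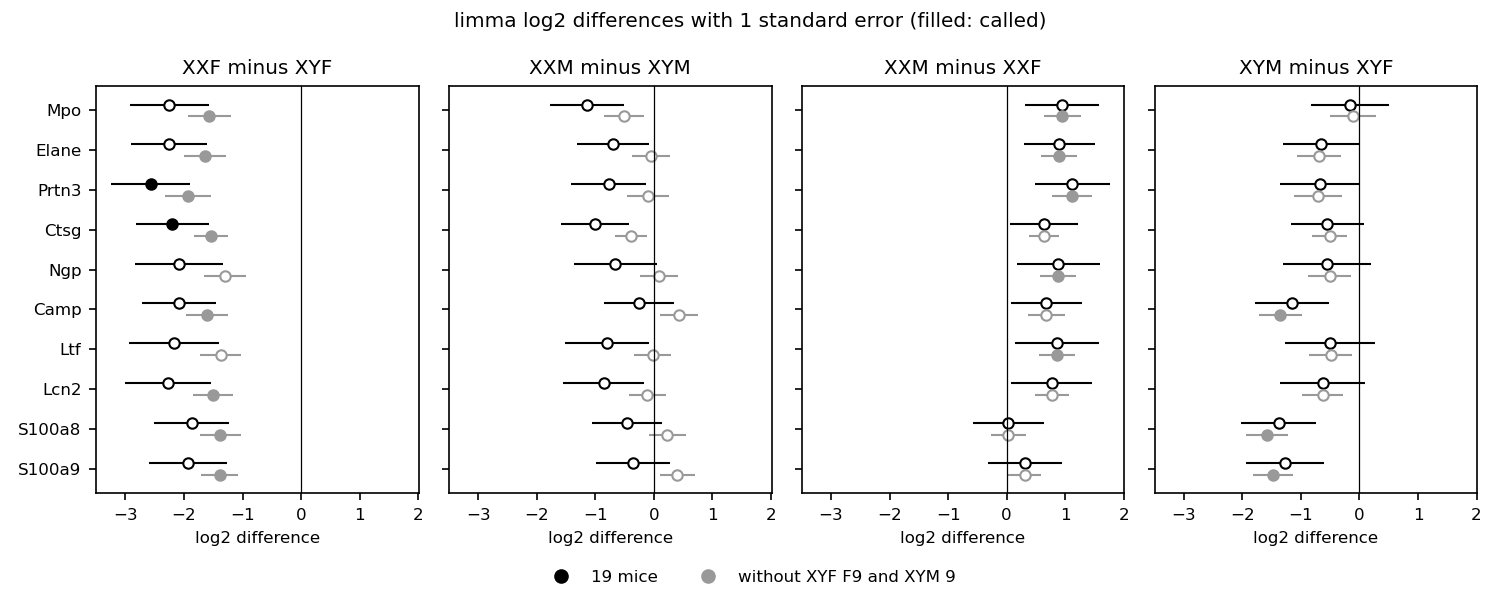
Log2 differences of the 10 genes in 4 comparisons from limma, with 1 standard error, over all 19 mice (black) and without XYF F9 and XYM 9 (grey); filled points were called. All points lie below 0 for XXF minus XYF, and the grey error bars are shorter than the black ones.

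The comparison of testes with ovaries was made within each set of sex chromosomes. Between XXM and XXF mice limma called 0 of the 10 genes (4.22% of all genes called, 2.91% lower and 1.30% higher), with 0 at an unadjusted p under 0.05 and 0 by limma-voom. The XXM mice nevertheless lay wholly above the XXF mice in 4 of the 10 genes, Elane, Ctsg, Ngp and Lcn2, beside 9.71% of all genes without overlap, 5.15% wholly below and 4.56% wholly above. The estimates ran from 0.03 (S100a8) to 1.12 (Prtn3, SE 0.64, 95% interval -0.22 to 2.46). The standard errors take in the spread of XYF F9 and XYM 9 although neither mouse is in these groups. Without them 5 genes were called higher in XXM mice (4.78% of 14097 genes called, 3.26% lower and 1.52% higher), namely Prtn3 (1.12, SE 0.34, limma adjusted p = 0.0488), Mpo (0.95, 0.0808), Elane (0.90, 0.0853), Ngp (0.88, 0.0912) and Ltf (0.86, 0.0961). S100a8 stayed at 0.03 (limma adjusted p = 0.969), and its sign turned without XXF F2 (-0.03) or without XXM 2 or 6 (-0.06 each), and it was at 0 without XXM 5. With the XXM and XXF mice fitted alone, 8 of the 10 genes were called higher in XXM mice, all but the cytosolic genes. They ran from Prtn3 (1.12, limma adjusted p = 0.0208) to Camp (0.68, 0.0903). With array weights Mpo, Elane and Prtn3 were called higher. The share of all genes called is not given for these settings.

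Between XYM and XYF mice the estimates were all below 0 but none was called, beside 15.8% of all genes called, 8.13% lower and 7.63% higher. In none of the 10 genes were the groups free of overlap (13.8% of all genes were, 3.86% with XYM wholly below and 9.93% wholly above). Limma gave 1 gene with an unadjusted p under 0.05, S100a8 (-1.38, SE 0.64, adjusted p = 0.109), and limma-voom called 0. Mpo lay at the other end (-0.16, SE 0.67). Leaving out XYF F8 gave 3 genes called lower (19.5% of all genes called, 9.01% lower), leaving out XYM 9 gave 9 (20.9%, 10.3% lower). The estimates of Mpo (0.52), Ltf (0.29), Ngp (0.24), Lcn2 (0.13) and Ctsg (0.11) turned above 0 without XYF F9, and that of Mpo also without XYM 12 (0.10), XYM 15 (0.10) or XYM 16 (0.03). Without both XYF F9 and XYM 9, 3 genes were called lower in XYM mice, beside 22.2% of 14097 genes called, 11.9% lower and 10.2% higher. These were S100a8 (-1.58, SE 0.36, limma adjusted p = 0.00613), S100a9 (-1.47, SE 0.34, 0.00628) and Camp (-1.35, SE 0.37, 0.0137), while the 4 primary granule genes had estimates from -0.71 (Prtn3) to -0.11 (Mpo) and were not called.

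Averaged over XX and XY mice, males and females differed by -0.67 (S100a8) to 0.39 (Mpo), and limma called 0 of the 10 genes (7.32% of all genes called, 5.36% lower and 1.96% higher), with 0 at an unadjusted p under 0.05 and 0 by limma-voom. Without XYM 9, 2 were called lower (8.85% of all genes called, 6.30% lower). Some estimates changed sign with 1 mouse left out. Without XYM 9 this held for Elane (-0.20), Prtn3 (-0.11), Ctsg (-0.26), Ngp (-0.21), Ltf (-0.22) and Lcn2 (-0.31), and without XYF F9 for Camp (0.01). Without XYF F8 it held for Elane (-0.04), Ctsg (-0.09), Ngp (-0.03), Ltf (-0.03) and Lcn2 (-0.13). Ctsg and Lcn2 also turned without XYF F6 (-0.01 and -0.03), XYF F7 (-0.08 and -0.02) or XXM 6 (-0.03 each), Ctsg without XXM 7 (-0.01), and Elane was at 0 without XYF F7. S100a8 alone, with both XYF F9 and XYM 9 left out, was called lower in males (-0.78, SE 0.24, limma adjusted p = 0.019, 1 of 10 genes beside 9.14% of 14097 genes called, 6.72% lower and 2.43% higher).

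The difference between the XX and XY contrast in females and that in males was tested directly. Its estimates were below 0 for all 10 genes, from -1.82 (Camp, SE 0.87, 95% interval -3.66 to 0.01) to -1.11 (Mpo, SE 0.92), and limma called 0 of them (0.0846% of all genes called, 0.0282% lower and 0.0564% higher), with 0 at an unadjusted p under 0.05 and 0 by limma-voom. Without XYM 9, 9 were called lower (12% of all genes called, 4.30% lower and 7.65% higher). Without both XYF F9 and XYM 9, 5 genes were called lower (5.53% of 14097 genes called, 1.77% lower and 3.75% higher), namely Camp (-2.03, SE 0.48, limma adjusted p = 0.0797), S100a9 (-1.78, 0.082), Prtn3 (-1.83, 0.0891), S100a8 (-1.61, 0.0902) and Elane (-1.59, 0.0938). With XYM 9 alone left out these 5 genes were called as well, together with Ctsg, Ngp, Ltf and Lcn2. The estimates of the 5 ran from -2.51 (Camp, limma adjusted p = 0.0456) to -2.1 (S100a8, 0.056), with Elane at -2.20 (0.0611).

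Other granule genes had estimates of differing size. Of 5 other primary granule genes tested, 0 were called between XXF and XYF mice (median log2 difference -0.23, beside 0.06 over all genes). Of these 5, Ms4a3 (-2.05, limma adjusted p = 0.116) lay within the range of the 10 members, and the other 4 lay between -0.93 (Cd63) and 0.15 (Srgn). The list's most abundant gene was Srgn, the serglycin that packs granule enzymes and is made by many blood cells. Ms4a3, a membrane protein of granulocyte and monocyte progenitors, was called lower in XX mice averaged over both gonadal sexes (-1.38, limma adjusted p = 0.0793). That call was lost without XXF F2, F3, F4 or F5, XYF F6 or F9, XXM 2, 5 or 6, or XYM 13, with estimates from -1.42 to -1.08. Of 12 other later granule genes, among which the lysozyme gene Lyz2 was the most abundant, 0 were called between XXF and XYF mice (median -0.93). The estimates ran from -1.94 (Fcnb, limma adjusted p = 0.156) to 0.04 (Cyba), and 3 of the 12 lay within the range of the 10 members, Fcnb and Itgb2l (-1.90, 0.18) among them. Fcnb, the gene of ficolin B, was called lower in XX mice on average (-1.38, limma adjusted p = 0.099). It was not called without XXF F2, F3, F4 or F5, XYF F6 or F9, any of the XXM mice, or XYM 9, 13 or 16, with estimates from -1.49 to -1.01. Slpi, a protease inhibitor, was called lower in XYM than in XYF mice (-1.19, limma adjusted p = 0.00803, and -1.36 without both XYF F9 and XYM 9, 0.00717).

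Further genes of these lists were called with XYF F9 and XYM 9 both left out. Ms4a3 (-1.45, limma adjusted p = 0.0202) and Fcnb (-1.20, 0.0761) were called lower in XXF than in XYF mice, and both remained called in the average over gonadal sexes (-0.76 and -0.69). Between XXM and XXF mice, Ms4a3 (0.67, 0.094) and Fcnb (0.88, 0.0354) were called higher in XXM mice, as 5 of the 10 members were, and Slpi lower (-0.78, 0.0858). Between XYM and XYF mice 2 of 5 other primary granule genes, Cd63 (-0.83, 0.0157) and Ms4a3 (-0.72, 0.0598), were called lower in XYM mice, beside 22.2% of all genes called and 11.9% called lower. Of the other later granule genes 4 of 12 were, Slpi, Hp (-1.09, 0.0219), Cyba (-0.69, 0.0434) and Mmp8 (-0.71, 0.0871). Cyba was called higher in XXM than in XYM mice (0.63, 0.0854).

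Of 8 transcription factors of granule genes, 0 were called between XXF and XYF mice by limma (median -0.37). Their most abundant gene was Spi1, which encodes PU.1. Cebpe, the factor that drives the later granule genes, stood at -1.78 (SE 0.61, limma adjusted p = 0.158), and at -1.17 (SE 0.25, adjusted p = 0.0383) without both XYF F9 and XYM 9, when it was the only called factor of the 8. Cebpb, active in mature and emergency-produced neutrophils, was called lower in XYM than in XYF mice (-1.34, limma adjusted p = 0.00616, and -1.16 without both mice, adjusted p = 0.0111). Without both mice, Cebpd (-0.67, limma adjusted p = 0.0726) and Cebpe (-0.71, 0.0405) were called lower in XYM than in XYF mice too. Of all genes, 15.8% were called in this comparison over all mice, 8.13% lower. Without both mice the share was 22.2%, with 11.9% lower. Cebpb (0.80, 0.0767) and Cebpd (0.83, 0.0648) were then called higher in XXM than in XYM mice, and Cebpe (0.62, 0.084) higher in XXM than in XXF mice.

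Genes of mature neutrophils were measured for the same animals. Of 15, limma called 0 between XXF and XYF mice (median -0.78) and 0 between XXM and XYM mice (median -0.14). With both XYF F9 and XYM 9 left out, Wfdc21 was called lower in XXF than in XYF mice (-1.49, limma adjusted p = 0.0199), and Retnlg (0.93, 0.0863) and Clec4d (0.92, 0.0614) were called higher in XXM than in XYM mice. Ly6g, the surface antigen by which mouse neutrophils are defined, stood at -1.66 (SE 0.73, adjusted p = 0.24), whereas the receptor genes Cxcr2 (-0.28, SE 0.49) and Csf3r (0.08, SE 0.41) lay near 0 in XXF minus XYF. Fpr2, a formyl peptide receptor, was called lower in XX mice on average (-1.10, limma adjusted p = 0.099). That call was lost without any 1 of the XXF or XXM mice, XYF F6 or F9, or XYM 13 (estimates -1.15 to -0.88), and without both XYF F9 and XYM 9 (-0.60). Between XYM and XYF mice Fpr1 (-1.03), Clec4d (-1.15) and Il1b (-1.28) were called lower among the 15 genes, beside 15.8% of all genes called and 8.13% called lower. The call of Fpr1 was lost without XYF F7 (-0.86), XYF F9 (-0.75) or XYM 12 (-0.92). With both XYF F9 and XYM 9 left out, 9 of the 15 were called in that comparison, Ly6g among them (-0.80, limma adjusted p = 0.0384), beside 22.2% of all genes. The summed RPKM of the 15 genes, of which Retnlg was the most abundant, was 304 to 454 in XXF mice and 493, 762, 347 and 2000 in XYF F6 to F9. It was 303 to 361 in XXM mice and 1774, 183, 414, 214 and 180 in XYM 9, 12, 13, 15 and 16. By this sum XYM 12, 15 and 16 were lowest of all mice and the XXF mice were not, in contrast to the primary granule genes. Single genes of the list differed in this. Without XYF F9 and XYM 9, Retnlg (37.0 RPKM) and Il1b (47.0) had their lowest group median in XYM mice. Wfdc21 (20.2) had it in XXF mice and Csf3r (12.9) in XYF mice.

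The balance between an early and a late gene also differed between mice. Mpo RPKM in ‰ of S100a8 RPKM was 7.32, 5.40, 6.17, 3.27 and 5.06 in XXF F1 to F5, and 10.1, 3.42, 7.54 and 11.4 in XYF F6 to F9. In males it was 5.14, 6.88, 15.7, 14.4 and 15.4 in XXM 2, 5, 6, 7 and 8, and 14.9, 19.5, 17.1, 13.5 and 21.5 in XYM 9, 12, 13, 15 and 16. All 5 XYM mice lay above all 9 females, while XXM 2 and XXM 5 lay among the females. Neither XYF F9 nor XYM 9 stood apart in this ratio, in contrast to their levels. Ngp in ‰ of S100a8, in which XYF F9 was highest of all females (487), overlapped between all groups, with 188 to 278 in XXF, 151 to 487 in XYF, 232 to 742 in XXM and 267 to 766 in XYM mice. These ratios were formed after the levels were seen and were not tested.

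**Figure D3:**
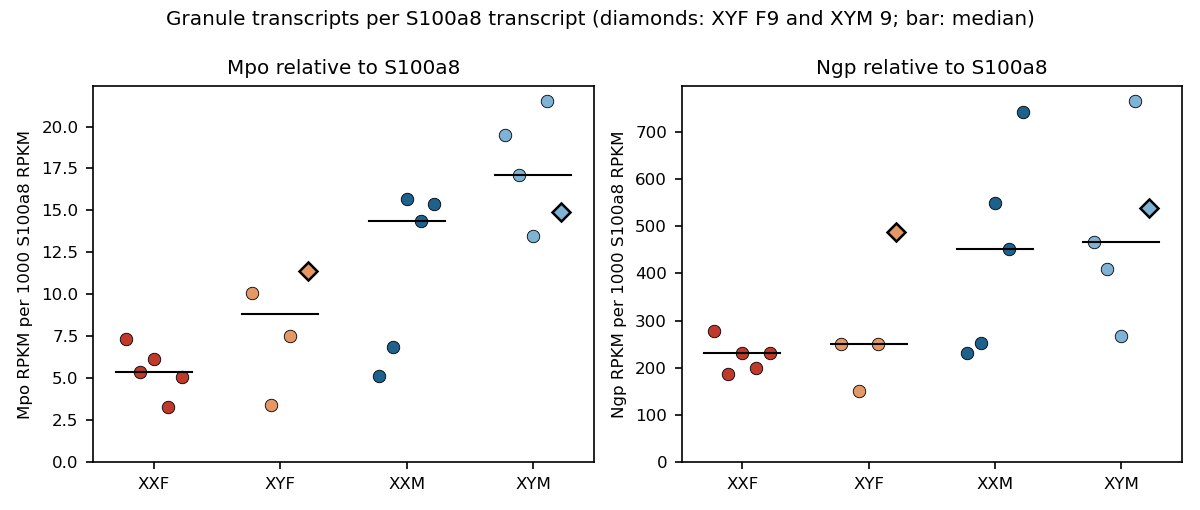
RPKM of Mpo (left) and Ngp (right) in ‰ of S100a8 RPKM in each of the 19 mice; bars are group medians and diamonds mark XYF F9 and XYM 9. For Mpo the XYM mice lie between 13.5 and 21.5, above all females.

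Whether the genes vary together from mouse to mouse was examined on log2 values centred on each group's mean. Because XYF F9 and XYM 9 form a cluster of their own, the values between the 10 genes given here are over the other 17 mice, with two-sided permutation within groups and adjustment over the 45 pairs of genes. By Pearson's r, 30 of 45 pairs had an adjusted p under 0.1, and by Spearman's rho 24. The closest pair was S100a8 with S100a9 (r = 0.977, permutation p = 1.00e-05, the smallest possible, adjusted p = 2.25e-04, and rho = 0.966, permutation p = 1.00e-05). It remained at 0.977 without XXM 8 and XYM 13, the mice farthest from the median. Among primary granule genes all 6 pairs were related, from r = 0.784 (Mpo with Prtn3) to 0.921 (Elane with Prtn3, permutation p = 1.00e-05, adjusted p = 2.25e-04, rho = 0.946, permutation p = 1.00e-05). Without the 2 farthest mice these 6 values lay between 0.540 and 0.924.

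Among the later granule genes, Ngp went with Ltf (r = 0.965, permutation p = 2e-05, adjusted p = 3.00e-04, rho = 0.877, permutation p = 6.00e-05) and stayed at 0.945 without XXM 6 and XYM 13. Ngp with Lcn2 (r = 0.938) and Ltf with Lcn2 (r = 0.940) were alike. Camp went most closely with the cytosolic genes, with r = 0.929 for S100a9 (permutation p = 4.00e-05, adjusted p = 3.60e-04, rho = 0.902, permutation p = 1.90e-04) and 0.917 for S100a8, and with 0.895 and 0.861 without XXM 2 and XYM 13. For Camp with Ngp r was 0.360 (permutation p = 0.308, adjusted p = 0.315, rho = 0.216, permutation p = 0.492) and -0.114 without XXM 6 and XYM 13. For Camp with Ltf it was 0.336 (permutation p = 0.330, adjusted p = 0.330, rho = 0.203, permutation p = 0.504). Camp was related to Lcn2 (r = 0.592, permutation p = 0.0585, adjusted p = 0.0877, rho = 0.478, permutation p = 0.0938, r = 0.538 without XXM 2 and XYM 13), although by rho the adjusted p was 0.151, and to Prtn3 (r = 0.793, adjusted p = 0.00516) and Elane (r = 0.746, adjusted p = 0.0204). Differences between correlations were not tested.

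Mpo was close to the later granule genes Lcn2 (r = 0.848), Ngp (0.832) and Ltf (0.831), each with a permutation p of 2.80e-04 or less. Without XXM 6 and XYM 13 these values were 0.624, 0.635 and 0.671. Mpo was not shown to vary with S100a8 (r = 0.412, permutation p = 0.194, adjusted p = 0.208, rho = 0.142, permutation p = 0.631), and r was -0.160 without XXM 6 and XYM 13. Elane with Ngp (r = 0.620, permutation p = 0.0399, adjusted p = 0.0642, rho = 0.436, permutation p = 0.15, adjusted p = 0.211) rested on XXM 6 and XYM 13, since r was 0.123 without them. Lcn2 with S100a8 (r = 0.683, permutation p = 0.0270, adjusted p = 0.0505, rho = 0.564, permutation p = 0.0354) fell to 0.291 without the same mice.

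**Figure D4:**
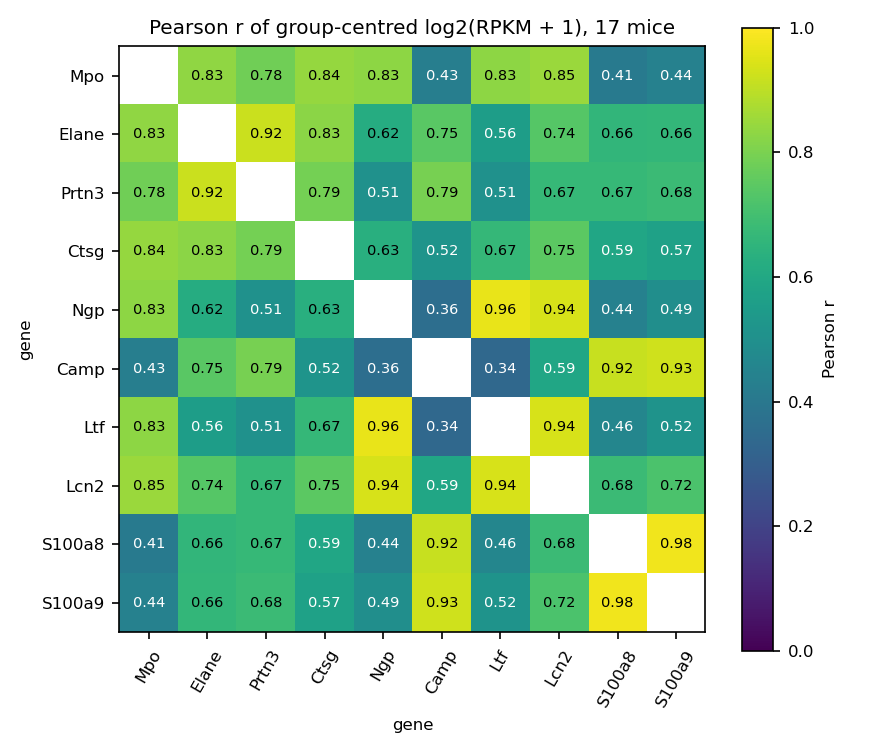
Pearson's r between the 10 genes over the 17 mice without XYF F9 and XYM 9, on log2(RPKM + 1) centred on group means; colour runs from 0 to 1. Camp is brighter with S100a8 and S100a9 than with Ngp and Ltf.

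The genes whose levels followed Mpo most closely over all 19 mice, XYF F9 and XYM 9 included, outside the 10 members and without centring, were Itgb2l (r = 0.971), Fcnb (0.970), Gca (0.967), Olfml2b (0.960) and 4930438A08Rik (0.958). For S100a8 they were Fpr2 (r = 0.977), Wfdc21 (0.970), AA467197 (0.962), Clec12a (0.959) and Tmem40 (0.958). Itgb2l encodes an integrin chain, Fcnb a granule lectin and Gca the calcium-binding grancalcin, and Fpr2 and Clec12a receptors of myeloid cells. No gene was on both lists. These values are carried in part by XYF F9 and XYM 9. Over the other 17 mice the closest genes were Prom1 (0.927), Gca (0.919), Itgb2l (0.918), Fcnb (0.914) and Olfml2b (0.907) for Mpo, and Fpr2 (0.929), Wfdc21 (0.910), Anxa3 (0.902), AA467197 (0.890) and Ifitm2 (0.886) for S100a8.

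RNA of other cell types moved with the 2 mice that stood apart, and its part in the results was not tested. The summed RPKM of mature neutrophil genes in XYF F9 was 4.06-fold that of the median of the other XYF mice and in XYM 9 8.94-fold that of the other XYM mice. For other later granule genes the folds were 3.20 and 5.09, for transcription factors of granule genes 2.16 and 2.08, and for other primary granule genes 1.12 and 1.01. Such folds follow the most abundant genes of a list. Srgn had 514 RPKM in XYF F9 and 439 in XYM 9, beside medians of 568 and 551 in their groups' other mice. Ms4a3 of the same list had 52.5 and 58.8, beside 10.1 and 4.89. Among the transcription factors Spi1 had 158 and 134, beside 77.7 and 86.0, and Cebpe 64.1 and 71.1, beside 11.9 and 6.36. Genes of eosinophils, basophils and mast cells stood at folds of 2.98 and 5.01. They were led by Prg2 (112 and 105 RPKM, beside 35.8 and 18.5). Ccr3 alone of this list was lower in both mice (10.3 and 4.95, beside 17.9 and 8.85). Monocyte genes, led by Ly6c2, were at 1.77 and 1.73, and progenitor genes, led by Flt3, at 1.66 and 1.62. Erythroid genes, led by the beta-globin gene Hbb-bs, were at 1.85 and 4.08, and proliferation genes, led by Pcna, at 1.73 and 2.66. Lymphocyte genes were lower, with 0.518 and 0.635 for B cells (led by Cd79b), 0.501 and 0.570 for T cells (led by Trac) and 0.507 and 0.338 for NK cells (led by Gzma). Macrophage genes, led by Hmox1, were at 0.651 and 0.622, and megakaryocyte and platelet genes, led by Ppbp, at 1.37 and 0.874. Hbb-bt and Ahsp of the erythroid list are not in the table.

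**Figure D5:**
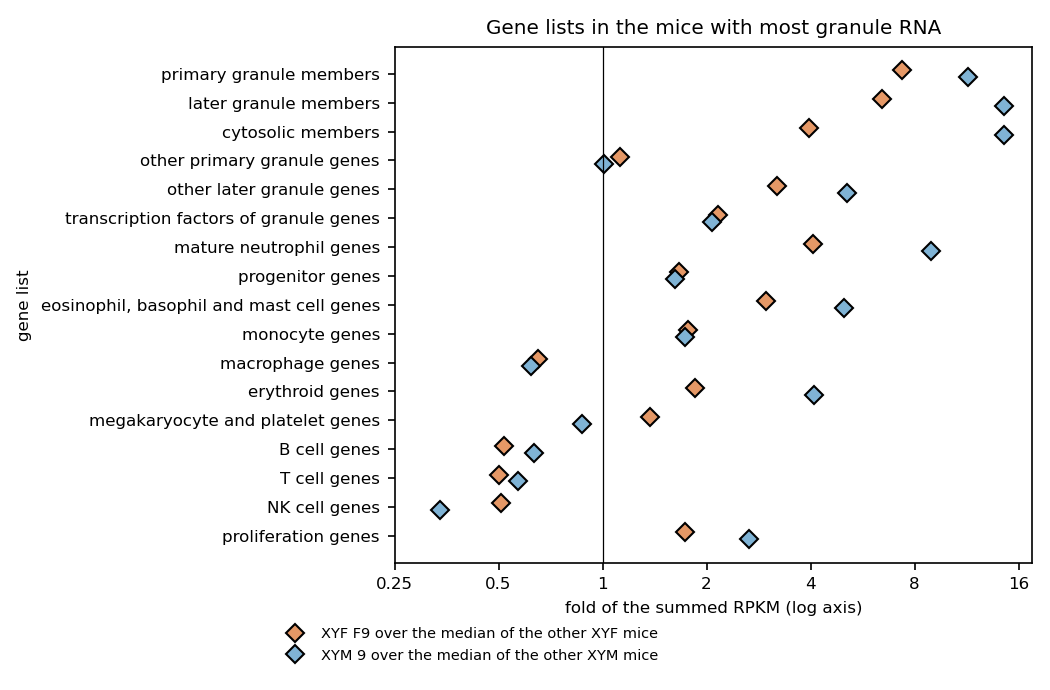
Summed RPKM of each gene list in XYF F9 and in XYM 9, as a fold of the median of the other mice of the same group, on a log axis. Granule and neutrophil lists lie to the right of 1 and lymphocyte lists to the left.

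Other cell types also moved with the groups in which the granule genes differed, and their part was not tested either. Between XXF and XYF mice 5 of 6 NK cell genes were called higher in XXF mice (median 1.43, beside 0.06 over all genes), in the direction opposite to the granule genes. They were the receptor genes Klre1 (1.41, limma adjusted p = 0.00347), Klrb1c (1.46, 0.0115) and Ncr1 (1.46, 0.0179) and the granule genes of killer cells Gzma (1.73, 0.0376) and Prf1 (1, 0.061). The call of Gzma was lost without XXF F5 (1.70), XYF F6 (1.74) or XYF F9 (1.41), and that of Prf1 without XXF F1 (0.94), F4 (0.97) or F5 (0.96), XYF F6 (1.01) or XYF F9 (0.84). All 5 were called with both XYF F9 and XYM 9 left out. The summed RPKM of the 6 NK cell genes was 403, 447, 434, 542 and 503 in XXF F1 to F5, and 152, 251, 171 and 86.6 in XYF F6 to F9. Among males the sum was 327 to 395 in XXM mice and 65.5, 193, 194, 289 and 158 in XYM 9, 12, 13, 15 and 16. By this sum, to which Gzma contributed most (mean 201 RPKM over all mice), all XX mice lay above all XY mice. Not every gene of the list went this way. For 1 of the 6 the median was 11.3 RPKM in XXM and 11.7 in XYM mice without XYM 9.

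Of 8 genes of the monocyte list (median -0.39), Nr4a1 (-0.72, limma adjusted p = 0.0113) and Ms4a6c (-0.59, 0.013) were called lower in XXF than in XYF mice. The call of Ms4a6c was lost without XXF F1 (-0.58), F2 (-0.54) or F3 (-0.58) or XYF F9 (-0.51). Of 9 macrophage genes 1 was called lower, Cd5l (-1.05, limma adjusted p = 0.098), and of 6 megakaryocyte and platelet genes 1, Gp9 (-0.85, 0.0399). The call of Cd5l held only without XXM 7, XYF F8 or XYM 9 among the 19 mice left out in turn (estimates -1.29 to -0.81), and that of Gp9 was lost without XXF F5 (-0.85), XYF F6 (-0.74) or XYF F9 (-0.74). Without both XYF F9 and XYM 9 Nr4a1 (-0.65) and Cd5l (-1.29) were called, and Ms4a6c (-0.51) and Gp9 (-0.74) were not. Of the erythroid, B cell, T cell, progenitor, proliferation and eosinophil, basophil and mast cell lists 0 genes were called by limma in this comparison, with medians of -0.63, 0.45, 0.45, -0.27, -0.91 and -0.44.

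Between XXM and XYM mice, where limma called none of the 10 genes, 3 of 6 NK cell genes were called higher in XXM mice (median 0.83), namely Gzma (1.40), Klre1 (0.93) and Klrb1c (0.91). The calls of Gzma and Klrb1c were lost without XXM 2, 5 or 6 or XYM 12, 13 or 16 (1.33 to 1.5 for Gzma, 0.87 to 1 for Klrb1c), that of Klre1 without XXM 2, XYM 13 or XYM 16 (0.87 to 0.93). The erythroid genes Hba-a1 (1.55) and Hba-a2 (1.52) were called higher too. The call of Hba-a1 was lost without XXF F2, F4 or F5, XXM 2, 5, 6 or 8, or XYM 12, 13 or 16 (1.27 to 1.67), and that of Hba-a2 without XXF F5, XXM 2, 5 or 6, or XYM 12, 13 or 16 (1.23 to 1.64). With both XYF F9 and XYM 9 left out, the same 3 NK cell genes and 6 of 10 erythroid genes were called higher (medians 0.55 and 1.30).

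Of other cell types, the B cell gene Pax5 (0.90) and the macrophage gene Hmox1 (0.77) were called higher in XXM than in XYM mice, and the T cell genes Cd4 (-0.69) and Cd8a (-0.77) and the monocyte gene Ly6c2 (-0.79) lower. The calls of Pax5 and Cd8a were lost without XXM 2, 5 or 6, or XYM 12, 13 or 16 (0.83 to 0.93 and -0.82 to -0.69), and that of Cd4 without the same mice or XXF F5 (-0.72 to -0.59). That of Hmox1 was lost without XXF F2, F4 or F5, XYF F6 or F8, XXM 2, 5, 6 or 7, or XYM 9, 12, 13 or 16 (0.56 to 0.94), and that of Ly6c2 without the same mice or XXM 8 (-0.94 to -0.52). Without both XYF F9 and XYM 9, Pax5 (0.85), Hmox1 (0.65), Cd4 (-0.93) and Cd8a (-0.90) were called and Ly6c2 (-0.52) was not.

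Averaged over both gonadal sexes, 5 of 6 NK cell genes were higher in XX mice (median 1.13), that of Prf1 (0.68) not without XYM 9 (0.55), and the eosinophil granule genes Prg2 (-1.09, limma adjusted p = 0.0811) and Epx (-0.86, 0.0845) and the monocyte gene Ly6c2 (-0.75, 0.0422) were lower. The call of Prg2 was lost without XXF F2, F3, F4 or F5, XYF F6 or F9, XXM 2, 5 or 7, or XYM 13 (-1.13 to -0.88), and that of Epx without the same mice, XXM 6 or XYM 9 (-0.90 to -0.62). Without both XYF F9 and XYM 9 the calls of Prf1 (0.47), Prg2 (-0.65), Epx (-0.46) and Ly6c2 (-0.48) were lost.

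The other lists were also compared between testis-bearing and ovary-bearing mice. Between XYM and XYF mice all 10 erythroid genes measured were called lower in XYM mice (median -2.24), as were 7 of 9 macrophage genes (median -0.87), 5 of 6 T cell genes (-0.78), 5 of 6 megakaryocyte and platelet genes (-0.69) and 5 of 8 proliferation genes (-0.97). Of all genes 15.8% were called in this comparison, 8.13% lower and 7.63% higher. Of the B cell genes 5 of 6 were called higher (median 0.76). The monocyte gene Treml4 was called lower (-0.81, limma adjusted p = 0.0395), but not without both XYF F9 and XYM 9 (-0.54). With both XYF F9 and XYM 9 left out, the counts were 10 of 10 for erythroid, 7 of 9 for macrophage, 5 of 6 for T cell, 5 of 8 for proliferation and 4 of 6 for B cell genes. Of the megakaryocyte and platelet genes only Gp9 (-0.96, limma adjusted p = 0.00513) was then called, 1 of 6. Of the eosinophil, basophil and mast cell genes 1 of 10 was called lower in XYM mice over all 19 mice, Ccr3 (-0.96, limma adjusted p = 0.0171, median of the list -0.56). Without both mice 5 of 10 were, Ccr3 (-1.01, limma adjusted p = 0.0125), Mcpt8 (-1.03, 0.0152), Prg2 (-0.86, 0.0478), Prss34 (-0.93, 0.0515) and Prg3 (-0.61, 0.0638), beside 22.2% of all genes called and 11.9% called lower. The calls of these lists were not rerun with single mice left out. Between XXM and XXF mice all 6 T cell genes were called lower in XXM mice (median -1.63), while 0 of 15 mature neutrophil genes (median -0.19) and 0 of 10 erythroid genes (median -0.78) were called by limma. The B cell gene Pax5 was called higher (1, limma adjusted p = 0.01) and the macrophage gene C1qb lower (-1.05, 0.0505). Of all genes 4.22% were called in this comparison, 2.91% lower and 1.30% higher. With both XYF F9 and XYM 9 left out, Ly6g was called higher (0.76, limma adjusted p = 0.0561) and Fpr1 lower (-0.85, 0.0178) in XXM mice, and again 0 erythroid genes and all 6 T cell genes were called. Pax5 was again called higher and C1qb lower, and C1qc (-0.71, limma adjusted p = 0.0667) and Ccr3 (-0.71, 0.0647) were then called lower too. Of 14097 genes 4.78% were called in this fit. The progenitor gene Flt3 was higher in testis-bearing mice in both comparisons (0.98 in XY and 1.07 in XX mice, and 1.07 in both without XYF F9 and XYM 9). Kit, the defining progenitor receptor, was not called in any of the 3 comparisons of XX with XY mice, with estimates of -0.02, -0.23 and -0.13. The RNA of these lists is taken up in shares of the same libraries, so that a rise of 1 list lowers the others.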

How the data were processed

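RNA was measured in splenocytes of 19 mice, 1 library each. Alignment by the authors was with Subread (mm10) and counting with featureCounts. The values the authors deposited are log2(RPKM + 1) plus 0.0001, and 0.0001 thus stands for no read. The sources used here give no versions, gene annotation, strand or multi-mapping settings. The methods name a KAPA stranded kit and the sample records a NEBNext Ultra kit. Read numbers recovered from the values were whole for 21317 of 21317 genes with a read (tolerance 0.05 reads). Intervals on shares of reads cover counting error only.

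The deposited values of 14186 genes, those reaching an RPKM of 0.5 in 4 mice or more, went into limma 3.58.1 (R 4.3.3) with 4 group means, 19 mice and a mean-dependent variance trend, and p was adjusted by Benjamini-Hochberg. A gene was called at an adjusted p under 0.1 and a change of at least 1.5-fold. The authors used EdgeR, which was not run here. Permutation tests used 100000 resamples and were two-sided. The software was matplotlib 3.10.9, scipy 1.17.1, pandas 2.3.3 and numpy 2.4.6 under Python 3.11.15. Read recovery, the limma fit and the correlations were tried on simulated data first. Promoters came from the RefSeq table of GRCm38.p6, which held all 10 genes.

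The members and lists were chosen with earlier results of these data known. The text may name, beside the members, genes of the lists that were called, each list's most abundant gene by mean RPKM, 10 defining markers, and the 5 genes most alike to Mpo and to S100a8. Alternatives were no filter, a filter at an RPKM of 1, pseudocounts of 0.1 and 0.5, median ratio rescaling, quantile normalization, the 2 compared groups alone, no trend, array weights, calling at an adjusted p of 0.05, calling without a fold threshold, and each mouse left out in turn. For correlations they were no centring and leaving out the 2 farthest mice. Leaving out both XYF F9 and XYM 9, and limma-voom on recovered reads, were chosen after seeing the data.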

Additional observations from a re-analysis of the deposited data

Results flagged for a closer look

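Within the groups, Camp in XXF F3 stood apart from the other XXF mice at a log2(RPKM + 1) of 8.18, and Lcn2 in XXM 6 from the other XXM mice at 8.49. Both were the highest of their group. These are 2 of 40 combinations of gene and group, and chance flags about 1 in 20 groups. Over all 19 mice, among all lists only Nr4a1 of the monocyte list had an XX to XY difference that differed between females and males. In the test of that difference Nr4a1 stood at -0.90 (limma adjusted p = 0.0877). Its adjusted p was over 0.1 by limma-voom and without any 1 of XXF F1, F2, F4 or F5, XYF F6, F7 or F9, XXM 2, 5, 6 or 8, or XYM 12 or 16 (estimates -0.93 to -0.84).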

How the results depend on the processing

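Of 3981 alternative values of 126 gene differences, 3508 kept their sign and their side of the threshold, 341 were no longer called, 90 became called and 42 changed sign. No value that changed sign was called (smallest adjusted p 0.351).

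The number of members called in XXF minus XYF was 2. It was 0 without a filter, at an adjusted p threshold of 0.05 and by limma-voom, 1 with median ratio rescaling or the compared groups alone, 5 with array weights and 8 with both XYF F9 and XYM 9 left out. With 1 mouse left out it ran from 0 to 10. For XX minus XY averaged it was 5, with 3 without a filter, 9 with array weights, 0 at a threshold of 0.05 and 0 to 9 with 1 mouse left out. For XXM minus XXF it was 0, with 8 for the compared groups alone, 3 with array weights and 5 with both mice left out. For XYM minus XYF it was 0, with 1 with array weights, 3 with both mice left out and 0 to 9 with 1 mouse left out. For males minus females it was 0, with 1 with both mice left out and 0 to 2 with 1 mouse left out. For the difference of differences it was 0, with 5 with both mice left out and 0 to 9 with 1 mouse left out. The count in XXM minus XYM was 0 in all 32 alternatives. The share of all genes called is not given here for array weights, the compared groups alone or no filter. The counts of members under these settings therefore stand without it.

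The sign changed with both mice left out in XXM minus XYM for Ngp (0.09), Camp (0.43), S100a8 (0.23) and S100a9 (0.40), and with array weights for S100a8 in XXM minus XXF (-0.02) and Mpo in XYM minus XYF (0.16). With 1 mouse left out, XXM minus XYM ran from -1.04 to 0.09 for Ngp, -0.59 to 0.43 for Camp, -0.78 to 0.23 for S100a8 and -0.67 to 0.40 for S100a9. S100a8 in XXM minus XXF ran from -0.06 to 0.20. XYM minus XYF ran from -0.80 to 0.52 for Mpo, -1.17 to 0.11 for Ctsg, -1.30 to 0.24 for Ngp, -1.29 to 0.29 for Ltf and -1.39 to 0.13 for Lcn2. Males minus females ran from -0.20 to 0.43 for Elane, -0.11 to 0.54 for Prtn3, -0.26 to 0.37 for Ctsg, -0.21 to 0.56 for Ngp, -0.58 to 0.01 for Camp, -0.22 to 0.57 for Ltf and -0.31 to 0.45 for Lcn2. Apart from the mice left out, the cause was not tested.

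Counts and estimates both moved with single libraries. The largest shift of a mouse's median was 0.13 with median ratio rescaling and 0.10 with quantile normalization. The number of related pairs was 45 of 45 over 19 mice and over 19 mice without centring, and 30 with XYF F9 and XYM 9 left out. Over 19 mice these were the 2 farthest mice for every pair, so that leaving out the farthest was no separate check. Related pairs were not counted with 2 further mice left out. No paired analysis was done because replicate names are not shared between groups. Some numbers recur apart from the letter F, as in XYF F9 and XYM 9, and whether they mark pairs is not given in the sources. Depth limits the primary granule genes most, with 55 reads at the fewest.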
